A study of Mus musculus with 2 samples.

Results

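Retained intron transcripts are annotated RNAs of a gene in which bases that other transcripts of the gene splice out are kept as exon. The members described here are the 21828 Ensembl transcript IDs with the type retained_intron in the GENCODE M21 annotation of GRCm38 (the mouse assembly also called mm10), out of 129311 IDs listed in each count table. The rule uses the annotation alone and no measured value. They belonged to 9417 host genes, and 98.1% of them had a protein-coding host. RNA-seq was available for 1 condition: female germline stem cells (FGSCs) of the mouse strain CD-1, induced for 3 days with 10 µM retinoic acid (RA) plus the growth factor BMP4 (bone morphogenetic protein) at 10 ng/mL, on a monolayer of granulosa cells, in medium without GDNF, EGF and LIF, and labelled as premeiotic interphase. The 2 libraries, replicates 1 and 2, were made from polyadenylated RNA by Smart-seq2, in which cDNA primed on the poly(A) tail is amplified by PCR. The paper's methods describe this as low-input RNA-seq of only a few differentiated FGSCs. The labels do not say whether the libraries came from separate cultures. Undifferentiated cells were not analysed here, and no difference between conditions was tested.

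When an intron is not removed, the transcript usually stays in the nucleus, or reaches the cytoplasm and is degraded by nonsense-mediated decay because of an early stop codon. Many genes of RNA-binding and splicing proteins are known to use such transcripts to hold back their own output. In germ cells and early embryos, introns kept in the nucleus are also known as a store of RNA that can be spliced later. A count on such an ID in poly(A) RNA-seq mostly shows reads on intron bases: a retained intron, a precursor RNA not yet spliced and genomic DNA give reads on the same bases and cannot be told apart here.

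The splice sites below are those that the member runs through although other transcripts of the gene use them. They are shown so that the boundary between spliced and retained bases can be seen for members measured in both libraries. Shown are the first 8 members with at least 3 counts in both libraries. Each donor window holds the last 10 exon bases and the first 20 intron bases, each acceptor window the last 25 intron bases and the first 5 exon bases, 5′ to 3′ on the strand of the gene in GRCm38. The GT that opens the intron and the AG that closes it are in capitals. The sequence was read from the GENCODE M21 transcripts.
Tra2a donor, chr6:49263818-49263847 (−): cgagggcagaGTgagtacaaagccgcggga
Mbnl1 donor, chr3:60529795-60529824 (+): ttcactgaaaGTgagtaaatgttacctcct
Nfkb1 donor, chr3:135618784-135618813 (−): caactcacagGTgagccagctgacccagcc
Nfkb1 acceptor, chr3:135618963-135618992 (−): ttctgctctcactgtttttctccAGctttg
Lrif1 donor, chr3:106722097-106722126 (+): gctcgcgctgGTaagtaccagttcccagtt
Lrif1 acceptor, chr3:106722832-106722861 (+): ttcttttaattttgtgttaatccAGatgaa
Efr3a donor, chr15:65819861-65819890 (+): aacaaattctGTaagcaaagcagttgtttt
Dis3l2 donor, chr1:86878567-86878596 (+): gagacctaagGTaaacatggggaacacctg
Esd donor, chr14:74742129-74742158 (+): caccgaggagGTaatctcgcttatctcgta
Cep350 donor, chr1:155972829-155972858 (−): acactctcagGTgagctgcggggagacctg

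Over all members, 7060 (32.3%) held at least 1 whole intron of another transcript inside an exon. Another 14658 held no whole intron and ran through a donor or an acceptor of another transcript, and 110 did neither. The wholly retained introns of at least 30 bases numbered 12436 over the members, or 10390 at different positions. Over the members their median length was 252 bases (quartiles 117 and 654). Of these introns, 97.7% began with GT and ended with AG, 1.57% began with GC, and 14 began with AT and ended with AC. Per member, the median GC content of wholly retained introns of any length was 51.1%, against 52.8% in the rest of the same transcripts. A member had a median of 3 exons and 881 exonic bases. A base is called own here where the exons of no other annotated transcript, on either strand, cover it. Own bases were present in 19179 members, with a median of 342, and 98.2% of all own bases lay in an intron of another transcript of the gene. The 2649 members without own bases collected 13 counts in replicate 1 and 0 in replicate 2, so a member at 0 can have been present, and levels are given per own kilobase.

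The libraries differed widely in depth, with 1517151 counts in replicate 1 and 12442 in replicate 2. Hence 1 count stands for 0.659 (replicate 1) or 80.4 (replicate 2) counts per 1000000, abbreviated CPM, and 3 counts, the smallest number taken as shown and the upper limit that a count of 0 allows, stand for 1.98 and 241 CPM. Of 27 germ cell markers, Kit and Sohlh2 had 1 count each in replicate 1, and Tfap2c had 5 and Lhx8 1 in replicate 2; the markers summed to 2 and 6 counts. Ddx4, Dazl, Stra8 and Sycp3, which define germ cells and their entry into meiosis, were at 0 in both libraries. By depth alone, these zeros allow up to 1.98 and 241 CPM. Reads on bases shared by several transcripts were hardly counted, so more RNA can have been present, and the zeros do not show absence. By RT-PCR the paper found Stra8 and Sycp3 in its RA-treated FGSCs, and Stra8 also by immunofluorescence. Ifitm3 had 10577 and 6 counts on protein accessions that can belong to more than 1 gene. Of 12 fibroblast markers, 10 were counted in replicate 1, 6 of them with at least 3 counts, and summed to 4393 counts (18 in replicate 2). The matrix protein gene Dcn had 2281 and Col1a2 910, whereas Vim had 1 and Lum and Pdgfrb were at 0. Of 15 granulosa cell markers, 6 were counted in replicate 1 and summed to 721 (3 in replicate 2), among them Kitl with 453, whereas Foxl2 and Amh were at 0. The part of such cells in the values below was not tested, and more cells of a type cannot be told apart from more RNA per cell. The marker sums include the retained intron members of these genes. Members held 44 (replicate 1) and 9 (replicate 2) of the fibroblast counts, 27 and 0 of the granulosa counts and 1 and 0 of the germ cell counts.

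Retained intron transcripts held a small share of the counts of replicate 1 and a much larger share of those of replicate 2. They collected 22849 counts in replicate 1, which is 1.51% of the library (95% Wilson interval, 1.49% to 1.53%), and 1817 in replicate 2, which is 14.6% (14.0% to 15.2%). The reads carry no molecular identifiers, so intervals cover counting error only. Among the Ensembl transcript IDs alone, without the protein accessions under which most coding transcripts are listed, the shares were 10.8% and 28.5%. By number of IDs with at least 1 count the libraries were closer: members made up 13.1% of the 15412 IDs counted in replicate 1 and 14.6% of the 4259 counted in replicate 2. Among IDs with at least 3 counts, however, the shares were 10.9% and 19.1%. A counted member held a mean of 11.3 counts and a median of 3 in replicate 1, and a mean of 2.93 and a median of 2 in replicate 2.

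Per own kilobase, retained intron transcripts stood at 0.989 CPM in replicate 1 and 9.60 CPM in replicate 2. In replicate 1, the other transcript types ranged from 0.548 for TEC (gene models that still await experimental evidence) to 6.32 for processed pseudogenes, copies of spliced mRNAs. Antisense transcripts stood at 0.788, lincRNAs at 0.971 and processed transcripts at 1.31, so that retained introns lay between lincRNAs and processed transcripts. This order rested on few members: without the 10 highest of each type, lincRNAs became the lowest at 0.292, and retained introns at 0.906 lay beside processed transcripts at 0.929. In replicate 2 the 6 types lay close together, from 8.62 for antisense transcripts to 10.1 for processed pseudogenes. The highest type thus exceeded the lowest 11.5-fold in replicate 1 and 1.18-fold in replicate 2. Coding transcripts are mostly listed as protein accessions. Their counts were set over the own bases of all 66794 annotated transcripts not listed by their own ID, without a filter on coding type. This gave 23.6 CPM per kilobase in replicate 1 and 13.8 in replicate 2. Mitochondrial transcripts were left out of the latter values. Retained introns were thus further below this level of the protein accessions in replicate 1 than in replicate 2.

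**Figure D1:**
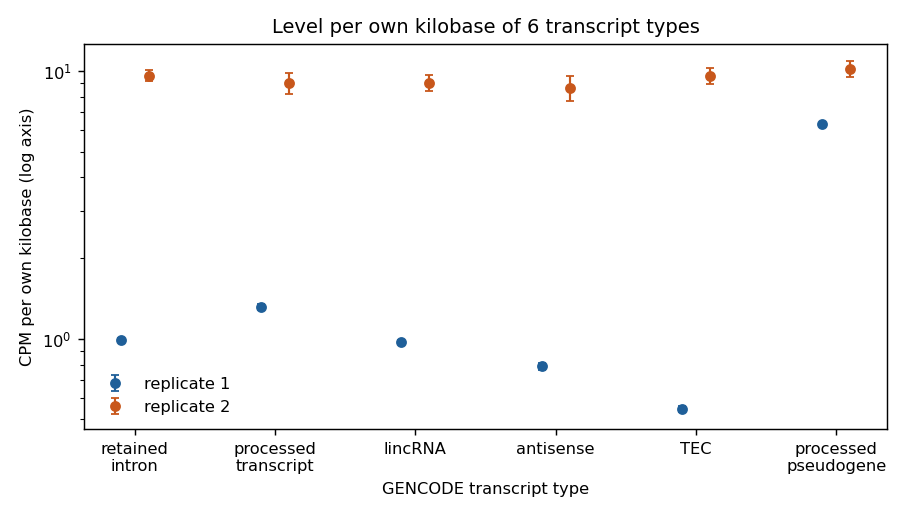
Level per own kilobase (CPM, log axis) of 6 transcript types in replicate 1 (blue) and replicate 2 (orange), with exact Poisson intervals of counting error. In replicate 1 the types spread from 0.548 to 6.32, whereas in replicate 2 they lie between 8.62 and 10.1.

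In replicate 1, 2023 members (9.27%) had a count, against 11.9% of all listed IDs, and in replicate 2, 621 (2.84%), against 3.29%. With at least 3 counts, 1085 members (4.97%, against 7.69% of all IDs) remained in replicate 1 and 220 (1.01%, against 0.891%) in replicate 2. At 2 counts the shares were 5.91% against 8.69% and 1.48% against 1.45%. The shares of members were thus below those of all IDs in replicate 1 and close to them in replicate 2. Counted members had many own bases. Among members with 1 to 99 own bases, 2.41% were counted in replicate 1 and 0.481% in replicate 2; among those with 3000 or more, 25.9% and 11.0% were. The median own length was 2287 bases in the members counted in both libraries, 971 in those counted only in replicate 1, 1447.5 in those counted only in replicate 2 and 299 in those counted in neither.

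Base composition went with the level in replicate 1. Members whose own bases held up to 40% GC stood at 1.38 CPM per own kilobase, those with 40 to 45% at 0.949, those with 45 to 50% at 0.814, those with 50 to 55% at 0.559 and those over 55% at 0.589. In replicate 2 the AT-rich members were instead the lowest, at 7.32, and the other GC classes lay between 9.09 and 11.0. The cause of this was not tested. The shape of the retained stretch gave a second difference between the libraries. Members whose own bases all lay in wholly retained introns stood at 1.06 in replicate 1 and 5.16 in replicate 2. Members without any wholly retained intron among their own bases, which mostly extend from an exon into an intron, stood at 1.04 and 11.4. Leaving out the 10 members with most counts of each class, these values became 0.690 and 2.196 for the first class and 0.949 and 9.79 for the second. In replicate 2 the first class had only 43 counted members with 97 counts, and the second 447 with 1374. Leaving out 10 members thus took a larger part of the first class.

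**Figure D2:**
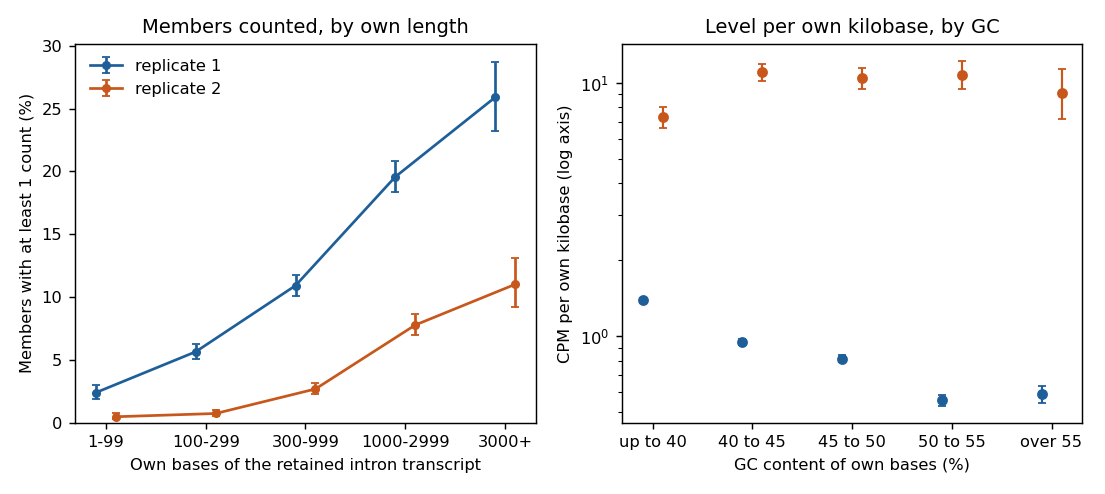
Left, share of retained intron transcripts with at least 1 count by number of own bases, with 95% Wilson intervals; right, level per own kilobase (CPM, log axis) by GC content of the own bases, with exact Poisson intervals. The share counted increases with own length in both libraries (replicate 1 from 2.41% to 25.9%, blue), and the level falls with GC content in replicate 1 from 1.38 to below 0.6 but not in replicate 2 (orange).

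The splice-site letters of the retained introns, read on the strand of the gene, were compared between counted and uncounted members. The donor letters GTAAGT opened 9.31% and GTGAGT 14.1% of all 10390 introns of at least 30 bases. GTAAGT opened 11.4% of the 1463 introns kept in members counted in replicate 1, 10.1% of the 358 kept in members counted in replicate 2 and 8.92% of the 8831 kept in members counted in neither. GTGAGT opened 13.1%, 16.8% and 14.2% of them. The median pyrimidine content of the last 20 bases before the closing AG was 75% in each of these classes. Length and GC content differed more: the introns were a median of 607, 688 and 248 bases long and held a median of 45.9%, 47.5% and 51.8% GC. Own length, which sets how many bases can collect reads, differed in the same direction as intron length, and the part of each was not tested.

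The counts of the host gene went with the level of its retained introns in replicate 1. The genes of the protein accessions were inferred from their place in the listed order, and 14724 members of 6880 hosts with unambiguous accessions were compared. Members of hosts without coding counts stood at 0.709 CPM per own kilobase, those with 1 to 9 at 1.04, those with 10 to 99 at 1.21 and those with 100 or more at 1.71. The share of members with a count was 8.25%, 11.3%, 13.5% and 16.3% in these classes. In replicate 2 the same classes stood at 9.27, 14.1, 9.68 and 9.32, without an order that followed the host. Coding counts of replicate 2 itself also separated nothing there: 10.1 for hosts at 0 and 9.68 for hosts with 1 count or more.

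**Figure D3:**
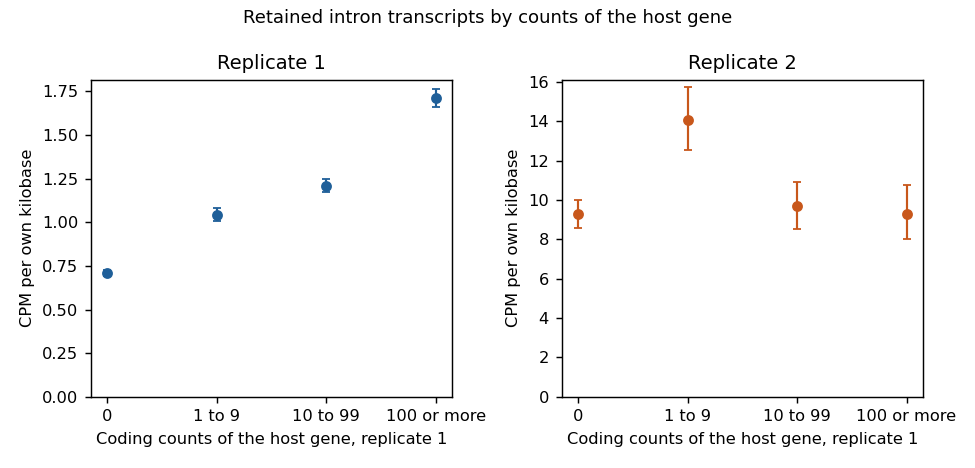
Level per own kilobase (CPM, linear axis from 0) of retained intron transcripts grouped by the coding counts of their host gene in replicate 1, with exact Poisson intervals. Replicate 1 goes up with the host from 0.709 to 1.71, and replicate 2 stays between 9.27 and 14.1.

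The members counted in both libraries were few. Of the 2523 members counted in at least 1 library, 121 were counted in both (0.554% of all members, against 1.33% of all listed IDs), which is 5.98% of the list of replicate 1 and 19.5% of that of replicate 2. Another 1902 were counted only in replicate 1 and 500 only in replicate 2. Over all listed IDs, 1726 were counted in both, out of 15412 counted in replicate 1 and 4259 in replicate 2. Members made up 7.01% of those 1726 IDs, against 13.1% and 14.6% of the IDs counted in each library. Of 29 members with at least 10 counts in replicate 2, 19 were at 0 in replicate 1, the deeper library. Of 16 with at least 100 counts in replicate 1, 12 were at 0 in replicate 2, but a 0 there allows up to 241 CPM, so most of these zeros cannot be told apart from a lack of depth. The same numbers over all listed IDs were not drawn up, so the zeros are not shown to be particular to retained introns. Over the 121, the counts of the libraries had a Spearman rho of 0.0419, a description across transcripts that share a library. At least 2 counts in both were found for 42 members (0.192%, against 0.462% of all IDs). At least 3 counts in both were found for 22 members (0.101%, against 0.249% of all IDs), of which the 15 with the highest lower share are described next.

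Several of these members belong to genes of splicing and RNA-binding proteins. The member of Tra2a, a regulator that binds splicing enhancers, spans chr6:49260243-49264030 as 1 exon with 3595 own bases, all in the 11322-base intron whose donor is shown above. Replicate 1 gave it 125 counts and replicate 2 gave it 3. The member of Mbnl1, a muscleblind splicing regulator, runs into a 65789-base intron and had 66 and 12 counts. Its 5 sister members together held 85 and 1 counts, and none of the 14 coding accessions of Mbnl1 had a count in either library. Reads on bases shared by several transcripts were hardly counted, so these zeros do not show a lack of coding RNA. The member of Ilf2, an RNA-binding partner in the NF90 complex, holds 2 whole introns and had 18 and 6 counts. Dis3l2, which degrades uridylated RNA, had a member with 30 and 6 counts that ends inside a 52177-base intron.

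Genes of signalling and of membranes made up a further part. The member of Nfkb1, the gene of the NF-κB subunit p50 and its precursor, spans chr3:135617994-135622142 as 1 exon through an acceptor and a donor, both shown above. It had 66 counts in replicate 1 and 15 in replicate 2, and the 4 coding accessions of Nfkb1 were at 0 in both. As for Mbnl1, these zeros do not show a lack of coding RNA. Efr3a, a plasma membrane anchor of a phosphatidylinositol kinase, had a member with 30 and 5 counts. The member of Dlg1, a scaffold of cell junctions, had 24 and 5 counts, and the early endosome GTPase gene Rab5b 18 and 11. The member of Apool, a subunit of the complex that shapes mitochondrial cristae, had 13 and 22 counts and was thus among the highest in replicate 2. These members were shown in both libraries, but their order in replicate 1 was not their order in replicate 2.

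The rest of the 15 described members came from centrosomal, chromatin, enzyme and other genes. Alms1, a protein of the centrosome and basal body, had a member with 27 and 19 counts that runs through an acceptor and a donor. Cep350, another centrosomal protein, had 27 and 5. Lrif1, a heterochromatin protein, had a member with 39 and 3 counts whose single exon keeps a whole intron and runs through the donor of another, of 9556 bases. Zfp644, a zinc finger gene, had 25 and 9, and the non-coding gene 1810026B05Rik had 8 and 4. The member of Esd, an esterase of glutathione metabolism, had 28 and 6 counts on only 460 own bases, which gives 40.1 CPM per own kilobase in replicate 1, the highest of these 15.

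Of the 10 members with most counts in replicate 1, 7 were at 0 in replicate 2, and all but Tmed7, at 306.5 CPM, lay below the 241 CPM that a 0 there allows. Tmed7, a p24 protein of vesicle transport, had 465 counts against 0 on a member of 6653 own bases, 4560 of them in 1 wholly retained intron. Ube2d3, a ubiquitin-conjugating enzyme, had 298 against 0 on a member that keeps 6 introns in an exon of 19300 bases. The member of Ncapg2, a condensin II subunit, had 284 against 1, but 87 of its 2207 own bases lay in the intron whose acceptor it runs through. Rbm25, a splicing factor, had 164 against 0 on a member with 2 whole introns, 1 of them 3300 bases long, and its 5 sister members held 62 counts. Ell2, a transcription elongation factor, also with 2 whole introns, and Fam204a had 146 each against 0. Uhrf2, a ubiquitin ligase that reads methylated DNA, had 130 against 0.

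The other 3 of these 10 were Tra2a, given above, Cyth3, an exchange factor of ARF GTPases, with 120 against 1, and Hnrnpa2b1 with 119 against 0. Each of the 10 had more counts in replicate 1 than the coding accessions placed in its gene. The coding accessions held 0 counts for Tmed7, 1 for Tra2a, 1 for Uhrf2, 3 for Fam204a, 15 for Hnrnpa2b1, 33 for Ncapg2, 36 for Rbm25, 39 for Cyth3, 118 for Ube2d3 and 133 for Ell2. Reads on bases shared by several transcripts were hardly counted, so these numbers are no ratio of unspliced to spliced RNA.

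The members with most counts in replicate 2 were largely other genes, and most run from an exon into a long intron. Mpp7, a scaffold of cell polarity, had 23 counts in replicate 2 against 4 in replicate 1. Agap1, a GTPase-activating protein of ARF proteins, had 22 against 2 on a 4451-base exon that opens a 149005-base intron. The glutamate transporter gene Slc1a1 had 22 against 0, and its intron is 43680 bases long. Supt7l, a subunit of the SAGA complex, had 20 against 0, the forkhead factor gene Foxn2 19 against 0, and Tbck, a kinase-like protein, 17 against 2. Car7, a carbonic anhydrase, and Qsox1, a sulfhydryl oxidase, had 16 each against 0, and the Qsox1 member has no own base in an intron of another transcript. Apool and Alms1, given above, complete the 10, and Apool, Alms1, Mpp7, Agap1 and Tbck had counts in both libraries. None of the 10 held a whole intron. Among the 10 highest of replicate 1, Tmed7, Ube2d3, Rbm25, Ell2 and Fam204a did.

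**Figure D4:**
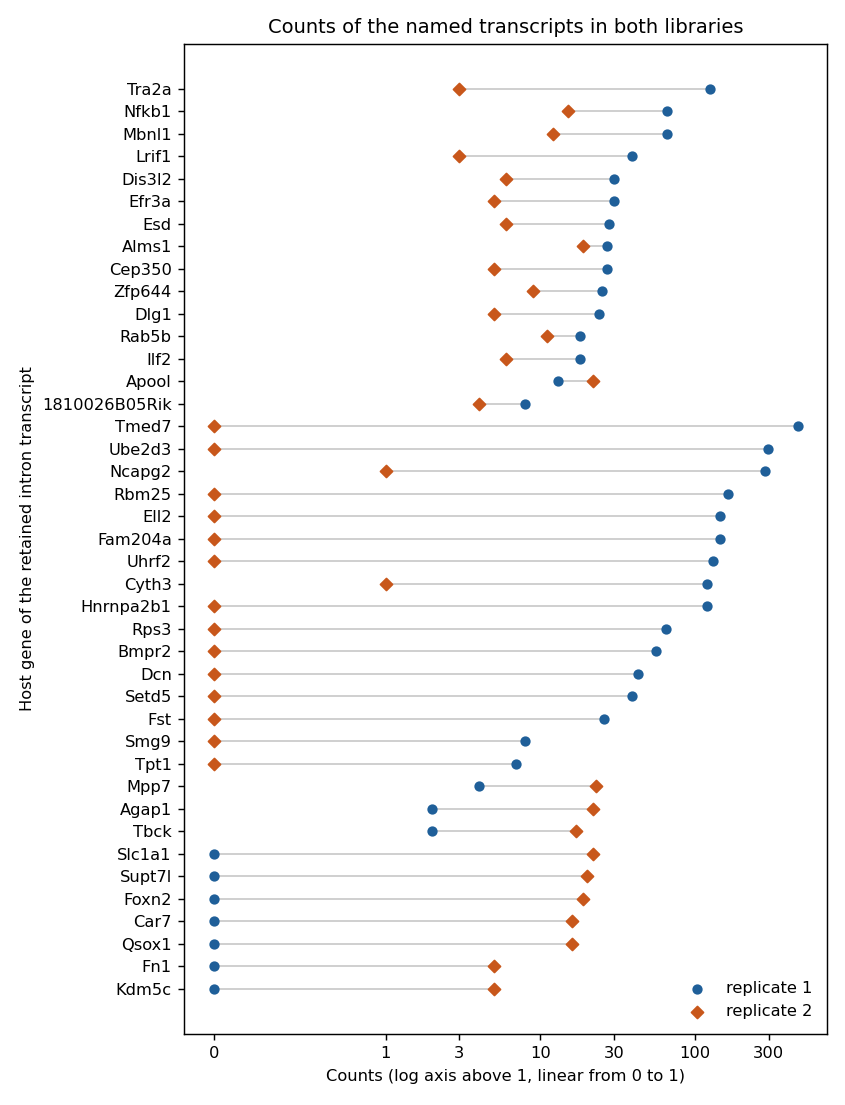
Counts of the 41 named retained intron transcripts in replicate 1 (blue circles) and replicate 2 (orange diamonds), log axis above 1 count and linear from 0 to 1. The upper 15 have at least 3 counts in both libraries; the middle block is high in replicate 1 with 0 or 1 count in replicate 2, and the lowest block the reverse, with 0 to 4 counts in replicate 1.

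Host genes were also followed by lists, 763 members in all, of which 131 were counted in replicate 1 (17.2%, against 11.9% of all IDs) and 16 in replicate 2 (2.097%, against 3.29%). Over all retained intron members the shares were 9.27% and 2.845%. Of the 185 members of SR proteins, CLK kinases and other splicing regulators, 48 (25.9%, against 11.9% of all IDs) were counted in replicate 1, on 28 host genes, and 10 (5.41%, against 3.29%) in replicate 2. They stood at 5.75 CPM per own kilobase in replicate 1, or 5.04 without the Rbm25 member, compared with 0.989 over all members and 1.71 over members of hosts with 100 or more coding counts. In replicate 2 they stood at 17.4, or 10.1 without the Mbnl1 member, against 9.60 over all members. Their own bases had a median GC content of 39.8%, and members up to 40% GC stood at 1.38 in replicate 1.

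Within this list the genes with most member counts in replicate 1, picked out after their values were seen, were Rbm25 with 226 over 6 members, Mbnl1 with 151 over 6 and Tra2a with 126 over 2. Luc7l, a U1 snRNP-associated protein, had 85, the SR protein gene Srsf3 76, and Clk1, a kinase that phosphorylates SR proteins, 69 over 7 members. In replicate 2 only Mbnl1 with 13 counts, Rbm5 with 9 and Tra2a with 3 reached 3 counts. Of the 13 members of Rbm5, a splicing factor linked to apoptosis, 2 were counted in replicate 1 with 8 counts in all and 4 in replicate 2.

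Members of hnRNP genes, whose proteins bind nascent RNA, had 19 of 74 counted in replicate 1 (25.7%, against 11.9% of all IDs) with 289 counts, 119 of them on the Hnrnpa2b1 member. They stood at 4.87 CPM per own kilobase, or 2.92 without that member. Hnrnpk followed with 89 counts over 13 members. Cytosolic ribosomal protein genes had 34 of 179 members counted in replicate 1 (18.99%, against 11.9%) with 397 counts, which is 6.33 per own kilobase, or 5.58 without the highest member, and above the splicing regulators on that scale. Rps3 led with 65 counts on a member with 4 whole introns, and Rps25 had 64. In replicate 2, both lists were at 0, against 3.29% of all IDs counted. The limit that 0 counts allows over all their own bases was 6.16 CPM per own kilobase for the hnRNP members and 5.84 for the ribosomal protein members, against 9.60 over all members of replicate 2. The hnRNP limit lay above the 4.87 of that list in replicate 1, and the ribosomal protein limit below its 6.33. In replicate 1 both lists stood above the 0.989 of all members, whereas in replicate 2 both limits lay below the level of all members. A difference between the libraries was not tested.

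The snoRNA host genes, whose introns carry small nucleolar RNAs, had 8 of 109 members counted in replicate 1 (7.34%, against 11.9%) with 38 counts, 13 of them on Tpt1, and 0 in replicate 2. Genes of nonsense-mediated decay and of the exon junction complex had 1 of 28 counted in each library (3.57%, against 11.9% and 3.29%). These were Smg9 with 8 counts in replicate 1 and Smg1 with 1 in replicate 2. DNA methylation and chromatin regulators had 14 of 115 counted in replicate 1 with 162 counts. This share of 12.2% was near the 11.9% of all IDs and above the 9.27% of all members. The gene Setd5, of a SET-domain protein, had 89 of these and Tet2, which oxidises methylated cytosine, 30. In replicate 2, 3 were counted (2.61%, against 3.29%): Kdm5c, a demethylase of H3K4, with 5, Dnmt3a with 1 and Arid1a with 1.

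Of the pathways of the inducing agents, RA and BMP signalling had 2 of 22 members counted in replicate 1 (9.09%, against 11.9% of all IDs and 9.27% of all members). None was counted in replicate 2 (against 3.29%). Both counted members were of Bmpr2, the type II BMP receptor. The higher had 56 counts in replicate 1 on 4571 own bases and 0 in replicate 2, and the coding accession of Bmpr2 had 377 and 2. Of 17 members in germ cell marker genes, 1 was counted in replicate 1 (5.88%, against 11.9%), with the 1 count of Kit given above, and none in replicate 2. Of 7 in granulosa cell marker genes, 2 were counted in replicate 1 (28.6%, against 11.9%, on few members) and none in replicate 2. Fst, which binds activin, led with 26 counts on a member that keeps 5 introns, beside 203 on its coding accessions. Of 27 in fibroblast marker genes, 2 were counted in each library (7.41%, against 11.9% and 3.29% of all IDs). Dcn had 43 counts in replicate 1 beside 2238 on its coding accessions, and Vim had 1. In replicate 2, the fibronectin gene Fn1 had 5 and Col1a2 4.

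**Figure D5:**
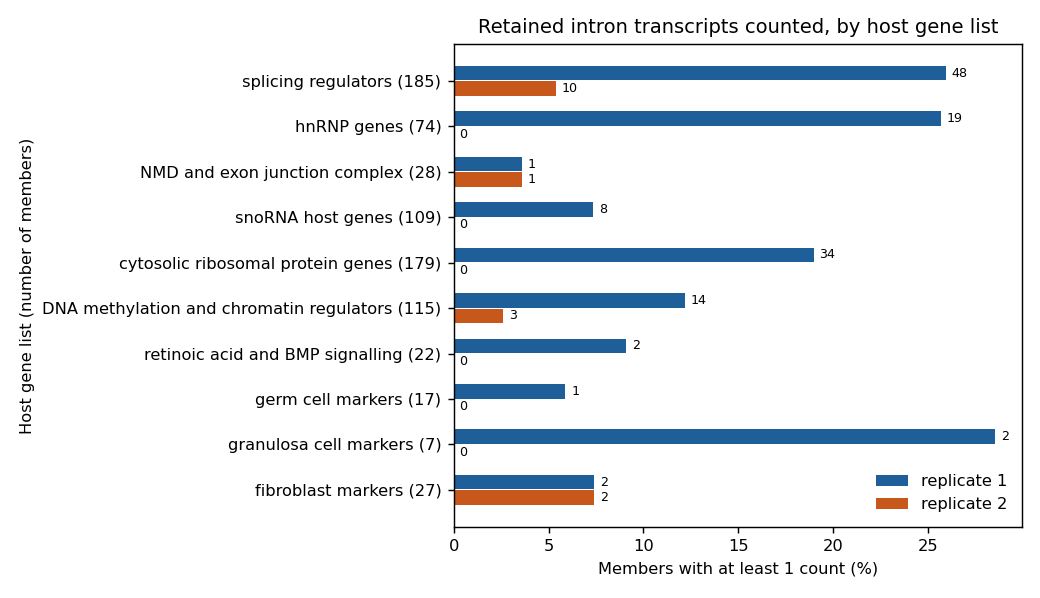
Share of retained intron transcripts with at least 1 count in 10 host gene lists, replicate 1 in blue and replicate 2 in orange; the number beside each bar is the number of members counted and the number after each list name its members. Splicing regulators (48 of 185) and hnRNP genes (19 of 74) have the highest shares among the lists with over 10 members in replicate 1, and 6 of the 10 lists are at 0 in replicate 2.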

How the data were processed

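Both libraries of differentiated FGSCs were used. The values deposited by the authors are raw counts, whole numbers for each ID. The submitters' processing notes name FastQC, Trim Galore, HISAT2 2.2.1 and featureCounts with mm10, whereas the paper's methods name TopHat and FPKM from Cufflinks. The annotation behind the counts and whether strand was used are not given in the sources used here, so antisense and overlapping genes are uncertain. Each table listed 76066 Ensembl IDs, of which 75055 were in GENCODE M21 with the same version, and 53245 protein accessions. The gene of an accession was inferred from its place in the listed order; 85.3% were placed in 1 gene.

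Shares were given with 95% Wilson intervals. Levels were counts per own kilobase and per 1000000 counts. Both libraries form 1 group, so no test was run. Precision is limited by depth, 1517151 and 12442 counts, and by the few cells behind the libraries, whose part was not tested. Own bases, junctions and levels were tested on simulated data. Named were the 10 members with most counts in each library, up to 15 members with at least 3 counts in both, and the highest member of each list in each library if it had 3 counts. Members and lists were chosen with earlier results of these data known. Alternatives were other denominators, lengths, count minimums and members left out. Sequences came from the GENCODE M21 transcripts, and none from chromosome 18 is shown. Software was Python 3.11.15 with pandas 2.3.3, numpy 2.4.6, matplotlib 3.10.9 and scipy 1.17.1.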

Additional observations from a re-analysis of the deposited data

How the results depend on the processing

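No paired analysis was possible because only 1 group was measured. The share of counts on retained introns was 1.51% in replicate 1 and 14.6% in replicate 2. It became 10.8% and 28.5% of the Ensembl IDs, 1.71% and 15.8% without mitochondrial IDs, and 1.37% and 13.0% without the 10 highest members. In replicate 1 it was 1.48% for protein-coding hosts only and 1.47% without members over a small RNA gene. The number counted fell from 2023 to 1290 at 2 counts and 1085 at 3 in replicate 1, and from 621 to 323 and 220 in replicate 2. Counted in both went from 121 to 42 and 22, and members of the host lists from 131 to 87 in replicate 1 and from 16 to 6 in replicate 2 at 3 counts. Per kilobase of all exonic bases the level was 0.435 and 4.22 CPM, without the 10 highest members 0.906 and 8.58, and for members without a 31-base word found in another gene, added after seeing the data, 1.05 and 8.93. Leaving out a library gave 621 to 2023 members counted in at least 1 library, against 2523, and a median own length of 1042 to 1643 bases, against 1161.5. In every setting run for both libraries the share and the level were higher in replicate 2. Of 37 alternative values, 12 stayed within the interval of the main value or, for numbers of members, within 1.5 times of it. With 12442 counts, replicate 2 shows single members only above 241 CPM.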

Other observations

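Homopolymer runs were looked at in members with 500 to 2000 own bases, where length differs less. An A run of at least 10 bases was present in the own bases of 20.5% of the 44 such members counted in both libraries, 13.2% of the 692 counted only in replicate 1, 13.1% of the 214 counted only in replicate 2 and 9.41% of the 3943 counted in neither. A T run of that length was present in 27.3%, 21.1%, 19.6% and 13.1%. At least 1 word of 31 bases found again in another gene was present in 52.3%, 44.9%, 42.5% and 35.6%.

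By chromosome, the level of retained intron transcripts ranged over the 19 autosomes from 0.533 to 1.47 CPM per own kilobase in replicate 1 and from 4.75 to 14.9 in replicate 2. Chromosome 2 was lowest in both libraries. In replicate 1 chromosome 13 was highest with 1.47, and in replicate 2 chromosome 19 with 14.9. Chromosome X stood at 0.532 and 9.93.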
